A study of Mus musculus with 2 samples.

Results

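The retinoic acid genes described here were 9 listed genes for making, sensing, breaking down and binding retinoic acid, Aldh1a1, Aldh1a2, Aldh1a3, Rara, Rarb, Rarg, Cyp26b1, Crabp1 and Crabp2, out of 43346 Ensembl genes in the tables. They were taken by name, through their gene identifiers without the version number, and every one of the 9 was present. Total RNA was sequenced from lungs of mouse embryos of the B6NCrl strain at embryonic day 15.5, when the airways are still branching. There was 1 group of 2 biological replicates. For replicate 1 the lungs of 78 embryos were pooled and for replicate 2 those of 62, both of mixed sex and reported as healthy. Each library started from 10 ng of RNA without the short size class, and spike-in sequences were added. The tissue was whole lung, so a level is an average over all of its cell types, and fewer cells of a type cannot be told apart from less RNA per cell.

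Retinoic acid is a small hormone-like molecule made from vitamin A. Retinol is oxidised to retinaldehyde, and the ALDH1A enzymes oxidise retinaldehyde to retinoic acid, which CYP26 enzymes then break down. Inside the cell it is carried by CRABP proteins and acts by binding retinoic acid receptors, which sit on DNA as partners of retinoid X receptors. In mouse lung the pathway is known for its part in the first outgrowth of the lung buds and, later, in airway smooth muscle and the forming air sacs.

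All 9 genes were detected, which means a level of 1 TPM or more (a read count corrected for transcript length and scaled to the same total in each library) in both libraries. Over all Ensembl genes 33.6% reached that level, and over protein-coding genes 60.7%. By mean TPM the order was Rarg, Rara, Aldh1a2, Aldh1a1, Crabp1, Rarb, Crabp2, Cyp26b1 and Aldh1a3, from 36.8 ± 0.198 TPM for Rarg to 1.08 ± 0.0283 TPM for Aldh1a3 (SD, n = 2 throughout). Both libraries gave this order. Neighbours were called different where, in addition, the deposited TPM intervals overlapped in neither library, and 6 of the 8 neighbouring pairs met this. The exceptions were Rara beside Aldh1a2, whose intervals overlapped in replicate 1, and Aldh1a2 beside Aldh1a1, whose intervals overlapped in replicate 2. The median level of the 9 was 15.8 ± 0.410 TPM, beside 17.2 ± 0.658 TPM for the median detected gene. The genes thus lay in the middle range of the detected genes or under it: Rarg stood above 69.6% of them, and Aldh1a3 above 0.302%.

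**Figure D1:**
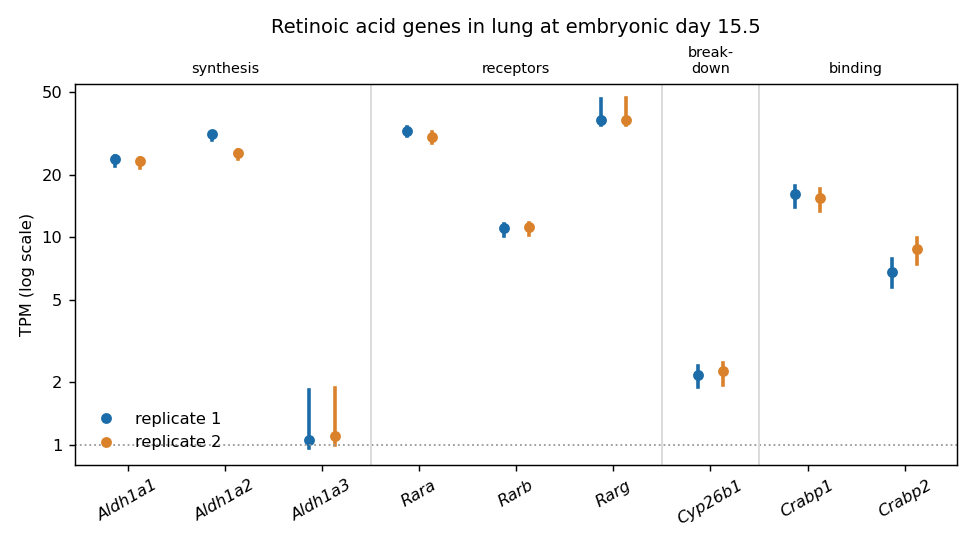
Level of each of the 9 genes in each library, in TPM on a log axis, in groups by role; points are the deposited TPM, vertical lines the deposited intervals, and the dotted line marks 1 TPM. The libraries lie close together for 7 genes, Aldh1a2 is higher in replicate 1 and Crabp2 in replicate 2, and Aldh1a3 and Cyp26b1 lie far under the rest.

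Among the 3 synthesis enzymes of the set, which carry out the last step, Aldh1a2 and Aldh1a1 made up nearly all of the message. Aldh1a2 (chr9:71215789-71296243, + strand, GRCm38) encodes the enzyme that supplies most retinoic acid in the early embryo. It stood at 31.5 TPM in replicate 1 (1807 estimated reads) and 25.6 TPM in replicate 2 (1364 reads), with a mean of 28.6 ± 4.19 TPM. Aldh1a1 (chr19:20492715-20643465, + strand) stood at 23.9 TPM (1235 reads) and 23.3 TPM (1121 reads), with a mean of 23.6 ± 0.403 TPM. Aldh1a2 was the higher of the pair in each library, but by 1.32 times in replicate 1 and 1.10 times in replicate 2, where the intervals overlapped.

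Aldh1a3 (chr7:66390890-66427517, − strand), an enzyme of the same step best known from eye and nasal development, was at the edge of detection. It stood at 1.06 TPM (72 reads) in replicate 1 and 1.10 TPM (69 reads) in replicate 2. Of the summed TPM of these 3 enzymes, which was 56.5 in replicate 1 and 50.0 in replicate 2, Aldh1a2 held 53.5% ± 3.28, Aldh1a1 44.5% ± 3.06 and Aldh1a3 2.04% ± 0.228. The coding sequences of the enzymes are 67.4% to 68.8% identical over aligned bases, and no stretch of 100 bases of their main transcripts was shared among them.

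Aldh1a1 has a much closer copy in the mouse, Aldh1a7, which lies on the same chromosome on the opposite strand. Aldh1a7 stood at 111 TPM in replicate 1 and 113 TPM in replicate 2, with a mean of 112 ± 1.06 TPM, far above Aldh1a1 in both libraries. The coding sequences of the pair are 91.6% identical, so the split of reads between them bears on the level of Aldh1a1. The sequences are shown because they carry that split: these are the 90 coding bases, positions 310 to 399 counted from the first base of the start codon, in which the pair differs most, with the 19 differing bases in capitals.
Aldh1a1: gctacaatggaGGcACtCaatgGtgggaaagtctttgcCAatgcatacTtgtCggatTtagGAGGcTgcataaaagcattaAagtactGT
Aldh1a7: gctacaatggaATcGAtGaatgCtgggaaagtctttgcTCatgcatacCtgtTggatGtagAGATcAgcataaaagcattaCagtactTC
Elsewhere the copies are closer, and at least 1 other stretch of 90 coding bases holds 0 differences. Only 1 of the 1954 stretches of 100 bases in the Aldh1a1 transcript is found in Aldh1a7. The deposited posterior SD of the estimated reads, which measures how freely reads could move between genes, was 0.17 and 0.21 reads for Aldh1a1 and 0 for the other 8 genes. Reads from identical stretches could belong to either gene. By the posterior SD this uncertainty came to 0.17 of 1235 reads of Aldh1a1 in replicate 1 and 0.21 of 1121 in replicate 2.

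Of the receptors, Rarg and Rara had the highest mean levels of the 9 genes, well above Rarb. Rarg (chr15:102234938-102257517, − strand), the receptor known for its role in skin and cartilage, stood at 36.9 TPM (2412 reads) and 36.7 TPM (2263 reads). Rara (chr11:98927818-98974942, + strand), the broadly expressed receptor, stood at 32.5 TPM (2267 reads) and 30.6 TPM (1923 reads), with a mean of 31.5 ± 1.30 TPM. Rarb (chr14:16430839-16819156, − strand), a receptor gene that is itself a known target of retinoic acid, stood at 11.1 TPM (863 reads) and 11.3 TPM (814 reads), with a mean of 11.2 ± 0.113 TPM. Both libraries gave the same order, with Rarg at 3.32 times the level of Rarb in replicate 1 and 3.25 times in replicate 2. Of the summed receptor TPM, which was 80.5 and 78.5, Rarg held 46.3% ± 0.558, Rara 39.6% ± 0.945 and Rarb 14.1% ± 0.388. In their coding sequences the receptors are 70.3% to 73.6% identical over aligned bases, and no stretch of 100 bases of their main transcripts was shared among them.

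The lead of Rarg over Rara was narrow and rested in part on a short fragment. Rarg-204, a transcript of 423 nt in the tables, held 9.79% of the TPM of Rarg in replicate 1 and 8.56% in replicate 2 from 31 and 25 reads. Counting only transcripts of 500 nt or longer, a choice made after these values were seen, Rarg stood at 33.3 and 33.5 TPM and Rara at 32.5 and 29.9 TPM. Rarg remained the higher in each library, by less than before.

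The level of Rarb carries a limit of its own. Top2b, a DNA topoisomerase gene on the opposite strand, overlaps the 3′ end of Rarb: in GENCODE M21 its last exon (chr14:16430299-16435462) covers 1793 of the 3108 bases of Rarb-201, or 57.7%. Top2b stood at 59.4 TPM in replicate 1 and 58.8 TPM in replicate 2, several times the level of Rarb. In the tables the listed Top2b transcript has 5660 nt, against 10335 nt in M21. The posterior SD of the estimated reads of Rarb was 0 in both libraries, so counting left none of them open between genes. That SD does not cover reads of Top2b credited wholly to Rarb. Whether counting used the strand is not given in the sources used here. It thus cannot be told whether reads of Top2b over these bases were counted as Rarb. The part of Top2b in the Rarb level was not tested.

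Rara and Rarg are each known to be read from separate start sites, which give proteins that differ at the N-terminal end and share the rest. The transcript tables showed both kinds of start in use for each gene. For Rara, the transcripts with the first coding base at 98950618 together held 64.8% of the gene's TPM in replicate 1 and 65.1% in replicate 2. Rara-202, whose first coding base is at 98960965, held 35.2% and 32.7%. The split between these start groups differed little between the libraries, at 64.9% ± 0.219 and 34.0% ± 1.77.

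Within the first group the estimate was less even. Rara-204 held 48.5% of the gene's TPM in replicate 1 and 41.5% in replicate 2, while Rara-203 held 14.8% and 23.6%. These transcripts share their coding bases, and their TPM intervals overlapped between the libraries, at 13.0 to 18.4 and 9.49 to 14.8 TPM for Rara-204.

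For Rarg, Rarg-201 and the related Rarg-205, with the first coding base at 102252602, together held 48.4% in replicate 1 and 57.0% in replicate 2. Rarg-202, with the first coding base at 102246210, held 41.8% and 34.4%. The mean shares were 52.7% ± 6.10 and 38.1% ± 5.23. The group with the start farther upstream had the larger estimated share in both libraries, by a margin that differed between them. The TPM intervals of Rarg-201 overlapped between the libraries (14.8 to 18.5 and 17.5 to 21.4 TPM), as did those of Rarg-202 (13.3 to 17.1 and 10.6 to 14.4 TPM). Within replicate 1 the intervals of Rarg-201 and Rarg-202 overlapped each other, and within replicate 2 they did not. By the rule used for neighbouring genes these main transcripts were thus not called different.

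The sequences that tell these transcripts apart are the first coding bases, of which 90 are shown for each, 5′ to 3′ on the coding strand, from the GENCODE M21 transcripts, with the start codon in capitals.
Rara-204: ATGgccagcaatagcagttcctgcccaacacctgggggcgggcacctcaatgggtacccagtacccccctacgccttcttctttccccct
Rara-202: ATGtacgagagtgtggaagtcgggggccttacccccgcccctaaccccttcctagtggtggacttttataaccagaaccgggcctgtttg
Rarg-201: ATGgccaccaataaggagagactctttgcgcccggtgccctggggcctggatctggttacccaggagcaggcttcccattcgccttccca
Rarg-202: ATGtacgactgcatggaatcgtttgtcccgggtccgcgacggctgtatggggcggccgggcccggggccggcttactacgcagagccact
Rara-204 has 178 coding bases and Rara-202 has 169 before the sequences join, after which they share 1208. Rarg-201 has 183 and Rarg-202 has 150 before they share 1191. Reads over the shared bases cannot tell the starts apart, so the shares rest on the bases before the join and on the untranslated ends.

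**Figure D2:**
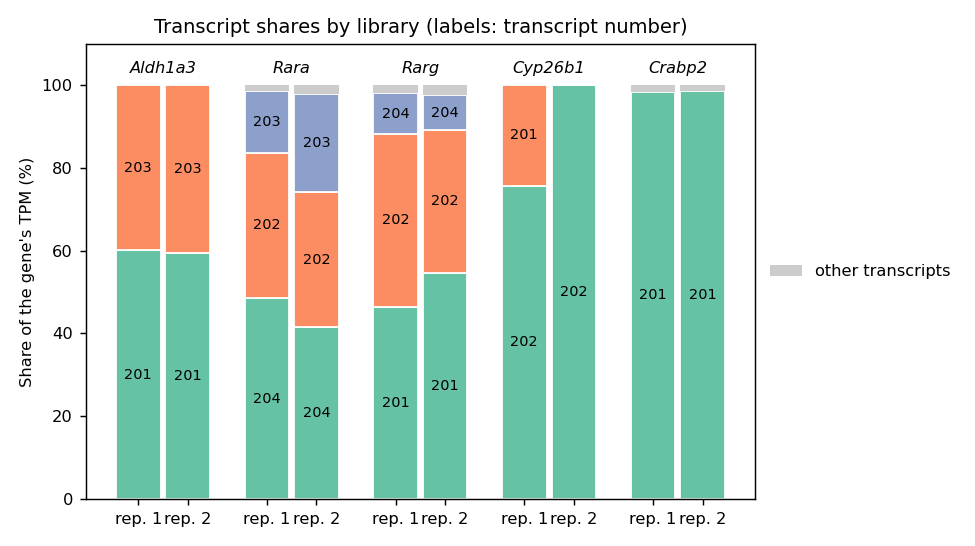
Share of each gene's TPM held by each transcript, in percent, for the 5 genes with more than 1 transcript in the tables; each pair of bars is replicate 1 and replicate 2, the numbers name the transcripts, and grey marks transcripts under 5% in both libraries. Rara and Rarg are split among several transcripts in both libraries, Aldh1a3 is split between a pair, and Cyp26b1 is split only in replicate 1.

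Rarb was a single transcript in the tables, Rarb-201. Its promoter is shown because it held the only match, among the members' windows searched, to the letters of a retinoic acid response element. These elements are direct repeats of a short unit, searched here as AGGTCA or AGTTCA or GGGTCA or GGTTCA in the same direction, 1, 2 or 5 bases apart, on both strands. The windows searched ran from 250 bases before to 50 bases after a gene's start in RefSeq (GRCm38.p6), and 7 of the 9 genes had 1 or more, 12 windows in all. The match stands at chr14:16575513-16575529, 53 to 37 bases before the RefSeq start of Rarb. It is shown within 30 bases, chr14:16575507-16575536, read on the − strand, with the repeated units in capitals.
Rarb: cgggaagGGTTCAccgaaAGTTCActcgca
Direct repeats 5 bases apart were found in 32 of 32851 windows, or 0.0974%, those 1 base apart in 0.222%, and those 2 bases apart in 0.268%. The exact 17 bases of the match, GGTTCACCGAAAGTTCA, were found in 1 window, that of Rarb. Among 12 retinoic acid responsive genes with a window, Cyp26a1 and Rarb held a repeat 5 bases apart. GENCODE M21 places the start of Rarb-201 at 16575543, before the match in the direction of reading. A match is a description of letters and shows no binding, and the other windows say only that these letters are not in them.

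The other 6 genes with a window held no match in their windows. No Rara window lay at the M21 start of Rara-202 (98960412) or of Rara-203 (98927818). The bases before those starts were therefore not searched. The 2 Rarg windows differ in composition, with 74.4% G and C in the 250 bases before the upstream start and 52.4% before the downstream start, where the median over all windows is 52.4%.

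Breakdown had little message. Cyp26b1 (chr6:84571414-84593908, − strand), a cytochrome P450 that oxidises retinoic acid into inactive products, stood at 2.18 TPM (266 reads) in replicate 1 and 2.26 TPM (256 reads) in replicate 2, with a mean of 2.22 ± 0.0566 TPM. The summed TPM of the synthesis enzymes was 25.9 times that of Cyp26b1 in replicate 1 and 22.1 times in replicate 2. These are ratios of message and carry nothing on enzyme activity. Cyp26b1-202 held 75.8% of the gene's TPM in replicate 1 and 100% in replicate 2, with Cyp26b1-201 at 24.2% and 0%. The TPM intervals of this pair were wide, at 0.181 to 2.07 and 0.0796 to 1.90 TPM in replicate 1, and both transcripts begin their coding sequence at the same base, so the split was not resolved at this depth.

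The other CYP26 genes were not detected at 1 TPM. Cyp26a1, which like Rarb is a known target of retinoic acid, stood at 0.43 TPM in replicate 1 and 0.12 TPM in replicate 2 from 19 and 5 reads. Cyp26c1 had 1 read in replicate 1 and 0 in replicate 2. Cyp26b1 was thus the highest of its family in both libraries, from many more reads.

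The binding proteins lay between these extremes. Crabp1 (chr9:54764748-54773110, + strand), a cytosolic carrier linked to turnover of retinoic acid, stood at 16.1 TPM (300 reads) and 15.6 TPM (269 reads), with a mean of 15.8 ± 0.410 TPM. Crabp2 (chr3:87948666-87953376, + strand), a carrier that delivers retinoic acid to its receptors in the nucleus, stood at 6.80 TPM (149 reads) in replicate 1 and 8.74 TPM (178 reads) in replicate 2, with a mean of 7.77 ± 1.37 TPM. Crabp1 was the higher in each library, at 2.37 times Crabp2 in replicate 1 and 1.78 times in replicate 2. It held 67.2% ± 4.47 of their summed TPM. Crabp2-201 made up 98.4% and 98.6% of Crabp2, the rest being a transcript that keeps an intron. Both are short genes, which collect few reads for a given TPM, and their intervals are wide for their level.

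Over all 9 genes the tables list 26 transcripts, of which 15 held 5% or more of their gene's TPM in either library and 7 were at 0 in both. Aldh1a1, Aldh1a2, Rarb and Crabp1 have a single transcript each. Aldh1a3 was split between Aldh1a3-201, with 60.1% and 59.5%, and Aldh1a3-203, with 39.9% and 40.5%. With the deposited posterior mean in its place these became 44.0% and 30.7% on average, so with 72 and 69 reads the split of Aldh1a3 depended on the estimate used.

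The libraries were then set against each other. With a single group no condition can be tested, and what follows compares a pair of embryo pools. A gene was called apart when its mean TPM was 5 or more, its scaled TPM differed 2-fold or more and its deposited intervals did not overlap. Of the 7 retinoic acid genes with a mean TPM of 5 or more, 0 were apart, and over all genes at that level 0.373% were (42 of 11261). An exact binomial test of the counts with the same fold gave 0 of these genes as well, but the fold rule fixed that outcome. Their largest scaled difference was 1.35-fold, for Crabp2, so the test of counts could add nothing here. By separate intervals alone, after scaling, 1 of the 7 differed, Aldh1a2, where 13.7% of all genes tested did and 4.07% did so with the lower value in replicate 2.

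Aldh1a2 was 1.17-fold higher in replicate 1 after scaling, a log2 ratio of replicate 2 over replicate 1 of −0.23. Its intervals were 29.5 to 32.3 TPM in replicate 1 and 23.7 to 26.4 TPM in replicate 2, and among all genes tested 10.6% had a log2 ratio as large. Markers of mesothelial cells, the lining of the lung surface, in which Aldh1a2 is known to be expressed in the mouse embryo, also had lower values in replicate 2. All 7 listed mesothelial markers were detected, 6 of the 7 had the lower scaled level in replicate 2, and their summed TPM was 91.1 in replicate 1 and 73.7 in replicate 2. Msln stood at 14.6 and 10.8 TPM, Upk3b at 35.4 and 28.4 TPM, Wt1 at 6.68 and 4.50 TPM and Lrrn4 at 5.78 and 4.31 TPM, and these 4 of the 6 markers tested had separate scaled intervals. Calb2 stood at 13.4 and 13.0 TPM and was the exception in direction, with a log2 ratio of 0.03 that rests on the scaling. Lower sums in replicate 2 were not particular to this list. Among others, the neural and neural crest list summed to 17.9 and 9.42 TPM and the thymus list to 84.3 and 16.4 TPM. The airway epithelial, smooth muscle, hepatocyte, and heart and skeletal muscle lists had the higher sum in replicate 2. The part of mesothelial cells in the difference of Aldh1a2 was not tested.

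Crabp2 had the largest log2 ratio of the 9, at 0.44, or 1.35-fold higher in replicate 2. Its deposited intervals, 5.73 to 7.90 TPM and 7.42 to 9.97 TPM, overlapped. Among all genes tested 2.44% had a log2 ratio as large. The other 7 genes had log2 ratios between −0.01 for Rara and 0.13 for Aldh1a3 and Cyp26b1, with overlapping intervals.

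**Figure D3:**
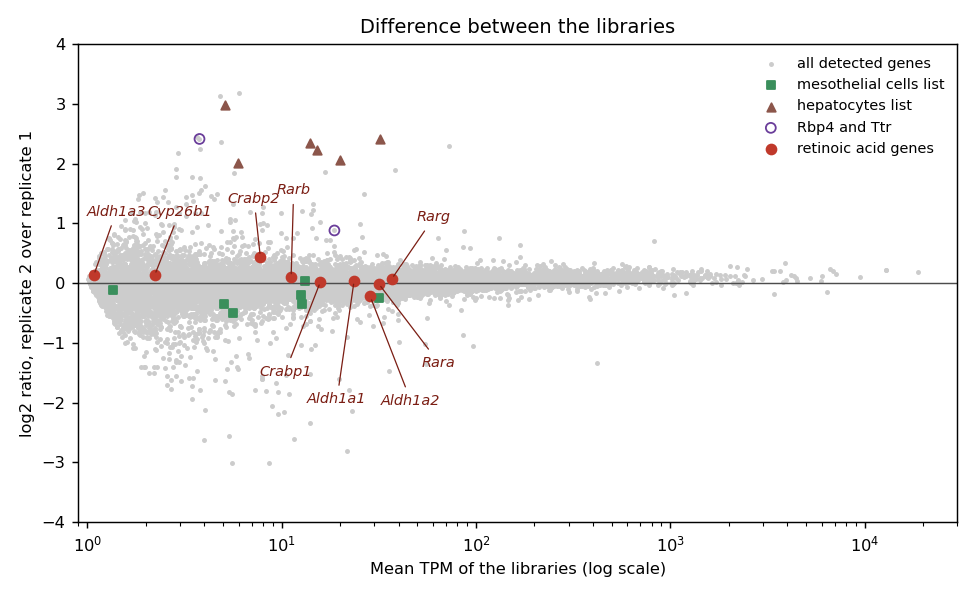
Log2 ratio of replicate 2 over replicate 1 after scaling, against the mean TPM on a log axis, for every gene detected in both libraries (grey); the retinoic acid genes are red and named, mesothelial markers green squares, hepatocyte markers brown triangles, and Rbp4 and Ttr open circles. The retinoic acid genes lie between −0.23 for Aldh1a2 and 0.44 for Crabp2, the mesothelial markers lie mostly under 0, and the hepatocyte markers lie at about 2 or higher.

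The lung label was checked against markers. Nkx2-1, the transcription factor that defines lung and thyroid epithelium, stood at 74.1 and 71.0 TPM, and Sftpc, a surfactant gene of the distal lung, at 6881 and 5864 TPM. Summed markers of hepatocytes and of thymus differed between the libraries. The hepatocyte list summed to 33.3 TPM in replicate 1 and 155 TPM in replicate 2, and the thymus list to 84.3 and 16.4 TPM. An upper airway and squamous list summed to 47.7 and 14.4 TPM, and 8 heart and skeletal muscle genes to 769 and 779 TPM, of which 5 were apart. The like sums hid opposite directions. Among the 5, Myl2 (25.8 and 119 TPM), Myl3, Myh7 and Acta1 were higher in replicate 2, and Myh6 (80.3 and 29.9 TPM) in replicate 1. Smooth muscle markers summed to 1050 and 1199 TPM and macrophage markers to 155 and 144 TPM. The libraries held 39530297 and 35733530 estimated reads in genes. The source of the RNA counted in these lists was not tested, nor was its part in the levels of the retinoic acid genes.

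The rest of the pathway was read from lists of 68 other genes, of which 48 were detected. Of 37 with a mean TPM of 5 or more, 0 were apart, where 0.373% of all genes tested were. Of the 37, 11 had separate scaled intervals, 4 lower and 7 higher in replicate 2, where 13.7% of all genes tested had them.

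Genes of retinol uptake, transport and storage were mostly low, with 7 of 13 detected. Scarb1, a lipoprotein receptor, stood at 55.3 and 51.3 TPM, and Dgat1, an acyltransferase, at 38.5 and 34.8 TPM. Stra6l was the lowest, with 2 reads in each library. The genes that follow were chosen after their values were seen. Stra6, the receptor that takes up retinol from its blood carrier, stood at 1.02 and 1.60 TPM.

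The blood carriers of retinol, which liver makes in quantity, were higher in replicate 2. Rbp4, the retinol binding protein of blood, stood at 13.6 TPM in replicate 1 and 23.8 TPM in replicate 2, 1.84-fold higher after scaling. Ttr, its partner transthyretin, stood at 1.25 and 6.31 TPM, 5.32-fold higher. The mean of Ttr, 3.78 TPM, lay under the minimum of 5, so it could not be called apart. The scaled intervals of Rbp4 and of Ttr did not overlap between the libraries. Both genes stand beside the hepatocyte list given above, in which 6 of 6 genes tested were apart and the median log2 ratio was 2.29. The part of liver RNA in Rbp4 and Ttr was not tested.

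Among the enzymes that convert retinol and retinaldehyde into each other, 10 of 17 were detected. Adh1, an alcohol dehydrogenase that can use retinol, was by far the highest at 1062 and 988 TPM, followed by Adh5, the formaldehyde dehydrogenase of the family, at 194 and 201 TPM and Dhrs4, a reductase, at 68.5 and 68.7 TPM. Rdh1 was the lowest, with about 1 read in replicate 1 and 0 in replicate 2. Rdh10, the main retinol dehydrogenase of the embryo, stood at 8.16 and 7.51 TPM, and Dhrs3, the enzyme that turns retinaldehyde back into retinol, at 44.5 and 43.1 TPM (both chosen after their values were seen). Message of Dhrs3 was thus 5.45 times that of Rdh10 in replicate 1 and 5.73 times in replicate 2. This ratio leaves out the other enzymes of the list, Adh1 and Dhrs4 among them, and carries nothing on enzyme activity.

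Of the other aldehyde dehydrogenases, Aldh1b1, a mitochondrial enzyme, stood at 10.5 TPM in replicate 1 and 6.54 TPM in replicate 2, with separate scaled intervals, and Aldh8a1 was the lowest at 0.07 and 0.24 TPM. Aldh1a7 was described beside Aldh1a1.

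Of the other carriers and receptor partners, 7 of 8 were detected. Fabp5, a fatty acid carrier that can also bind retinoic acid, was the highest at 183 and 159 TPM, followed by the orphan receptors Nr2f6, at 64.7 and 67.4 TPM, and Nr2f2, at 65.9 and 62.0 TPM. Among the retinoid X receptors, Rxrb stood at 46.6 and 39.0 TPM and Rxra at 11.4 and 10.5 TPM, while Rxrg, the lowest of the list, stood at 0.32 and 0.48 TPM from 16 and 21 reads. The summed TPM of the retinoid X receptors was 0.724 times that of the 3 retinoic acid receptors in replicate 1 and 0.637 times in replicate 2. Rxrb and Rxra were chosen after their values were seen.

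All 12 listed co-regulators of the receptors were detected. Ncor1, a co-repressor, was the highest at 132 and 121 TPM, Hdac3, the histone deacetylase of the same complex, stood at 108 and 107 TPM, and Med1, a subunit of Mediator that binds nuclear receptors, at 48.8 and 50.8 TPM. The lowest was Ncoa1, a co-activator, at 4.94 and 4.48 TPM. Most of the Ncor1 level came from a transcript of 1695 nt, with 72.5 and 65.9 TPM, while the longest transcript, of 9037 nt, stood at 6.38 and 7.73 TPM, so the place of Ncor1 above Hdac3 depends on how reads were shared among its transcripts.

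Of 20 genes listed as responsive to retinoic acid in one tissue or another, 16 were detected. Meis1, a homeobox gene, was the highest at 98.3 and 94.3 TPM, and Rarres2, which encodes chemerin, stood at 64.3 and 58.0 TPM. Stra8, a germ cell gene that marks entry into meiosis, was the lowest, with 1 read in replicate 1 and 0 in replicate 2. Rarb and Crabp2 belong to this list, and Cyp26a1, Stra6, Dhrs3 and Nrip1 are among those that belong to it and to another list. A gene on the list can be expressed with no retinoic acid present, so its level is no measure of the signal.

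**Figure D4:**
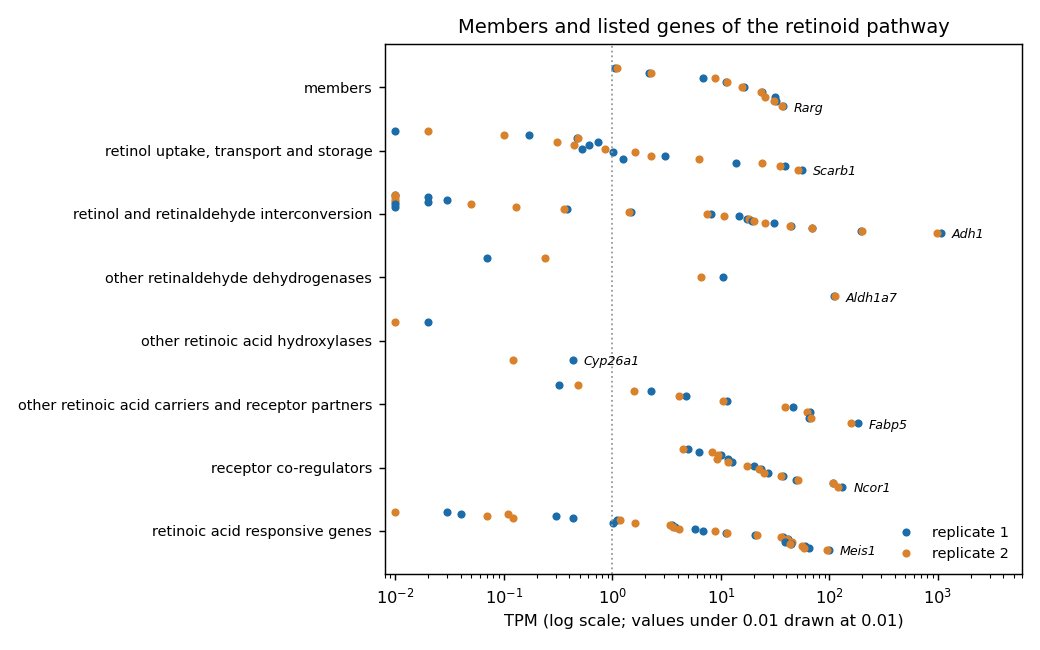
Level in TPM on a log axis of the 9 retinoic acid genes and of the genes in each pathway list, with a point for each library; genes are stacked by mean level within a row, the highest drawn is named, values under 0.01 TPM are drawn at 0.01, and the dotted line marks 1 TPM. The 9 genes span 1.08 to 36.8 TPM, while Adh1, Aldh1a7, Fabp5 and Ncor1 lie above all of them.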

How the data were processed

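Per the file headers, the authors deposited for each library gene and transcript tables with expected counts (estimated reads), TPM, posterior means, a TPM interval of unstated level, and, for transcripts, the percent of the gene's TPM. Counting used GENCODE M4 on mm10, per the deposited descriptions; aligner, quantifier and strand use: not given in the sources used here. Names and positions came from GENCODE M21 (97.96% of identifiers matched), and promoters from RefSeq GRCm38.p6. The totals were 40395849.9 and 36601054.1 estimated reads, and intervals cover counting and read assignment only. Expected counts were rounded and scaled by TMM (edgeR 4.0.16, R 4.3.3), over genes with 10 or more counts in either library, or by DESeq2 1.42.0 size factors. TMM added 0.08 to the log2 TPM ratio of replicate 2 over replicate 1. The scripts were tested on simulated data.

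The members and lists were chosen with earlier results of these data known. From each pathway list the 3 genes highest in mean TPM, the lowest and any gene apart between the libraries are named; others are marked as chosen later, and a result that the rule names is not reported here. No gene is named for a pattern like a member's, since a single group of 2 gives only a ratio. The alternatives were other minimum levels, scalings, a pseudocount of 1 TPM, posterior means, an exact binomial test, long transcripts only and leaving out each replicate. No test of a condition was possible with 1 group.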

Additional observations from a re-analysis of the deposited data

How the results depend on the processing

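The count of genes apart between the libraries, 42, became 163 with a minimum mean of 1 TPM, 338 with no minimum and 64 with the exact binomial test of counts. Calling every gene with separate scaled intervals and no minimum fold, an alternative chosen after seeing the data, gave 1548 genes and 1 of the retinoic acid genes (Aldh1a2) in place of 0. All 4 other settings gave 41 or 42 genes and 0 of the retinoic acid genes. At 2 TPM 8 of the 9 genes were detected, without Aldh1a3, and at 0.5 TPM all 9. With posterior mean TPM the share of Aldh1a3 among the synthesis enzymes became 2.68%, and the receptor shares became 38.2% for Rara, 13.4% for Rarb and 48.4% for Rarg. With transcripts of 500 nt or longer, also chosen after seeing the data, they became 41.1%, 14.8% and 44.1%. The order of the 9 genes was the same in each alternative tried, and 7 of 8 neighbours differed without replicate 1 or without replicate 2. Of 36 alternative log2 ratios (other scaling, posterior means, a pseudocount), 3 changed sign, all with no scaling and all near 0: Aldh1a1 (0.04 to −0.03), Rarg (0.06 to −0.01) and Crabp1 (0.02 to −0.05). Of the mean levels 5 of 36 alternative values moved by more than the SD, as did 5 of 45 transcript shares. These totals include leaving out each replicate, which cannot move a mean of 2 values by more than their SD. Only the other settings could therefore count as moved, and the totals understate how often those did. No paired analysis was possible because the study has a single group. Depth limits Aldh1a3, Cyp26b1 and Crabp2 most.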
